A study of Mus musculus with 6 samples.

Results

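The Ide-Fgfbp3 locus is a stretch of mouse chromosome 19, of which 8 protein-coding genes were examined here in the lungs of R/R and WT mice by RNA-seq. In chromosomal order the genes were Tnks2, Fgfbp3, Btaf1, Cpeb3, March5, Ide, Hhex and Exoc6, which made up 8 of the 56262 genes in the table. Ide, Fgfbp3 and Btaf1 had been chosen by their R/R-to-WT fold change in an earlier analysis of the same counts, and the other 5 genes were taken by position. The values of Ide, Fgfbp3 and Btaf1 between the genotypes are therefore a description with no test. Where a count includes these 3 genes it stands beside the share over all genes, and nothing is read from it. The question was whether the lungs differed by a step along this stretch of the kind that a difference in gene copy number would give.

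R/R mice carried the RBM47 K329R;K332R knock-in on both alleles, in which 2 lysines of RBM47 that accept the ubiquitin-like protein ISG15 are replaced by arginine. The line had been made with CRISPR/Cas on a C57BL/6 background, and the substrain was not given in the sources used here. The 3 R/R and 3 WT mice were 8 weeks old, untreated and described as littermates, and whole lung was sequenced, with 1 library for each of the 6 lungs. Totals ranged from 16501092 to 18141067 counts per library, and 17120 genes passed the filter on low counts. In whole lung, fewer cells of a type and less RNA per cell cannot be told apart. Rbm47, which lies on chromosome 5, was at 32.7, 33.5 and 34.1 CPM in R/R-1, R/R-2 and R/R-3 and at 28.8, 30.5 and 34.4 CPM in WT-1, WT-2 and WT-3 (log2 fold change 0.10, SE 0.08, adjusted p = 0.660 by edgeR's quasi-likelihood test with Benjamini-Hochberg adjustment). Counts per gene do not show the exchanged codons, so the level of Rbm47 did not check the genotype labels.

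Ide encodes insulin-degrading enzyme, a zinc metallopeptidase that cleaves insulin, amyloid beta and other short peptides inside a closed chamber. Fgfbp3 encodes a secreted protein that binds fibroblast growth factors and releases them from the extracellular matrix, and Btaf1 encodes an ATPase that removes the TATA-binding protein TBP from DNA. The region is also known from mouse genetics, because a copy-number gain holding Ide and Fgfbp3 has been described among C57BL/6J mice. DNA was not measured in these lungs, and the part of copy number in the values below was not tested.

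The locus spanned 849.8 kb of the GRCm38 assembly, from the start of Tnks2 at 36834232 to the end of Exoc6 at 37684059. Fgfbp3 (chr19:36917550-36919615, minus strand) and Ide (chr19:37268743-37337852, minus strand) were separated by 349.1 kb. Btaf1 (chr19:36926079-37012752, plus strand), Cpeb3 (chr19:37021291-37208601, minus strand) and March5 (chr19:37207543-37222151, plus strand) lay between them. Tnks2 preceded Fgfbp3, while Hhex (chr19:37434810-37440731) and Exoc6 (chr19:37520879-37684059) followed Ide, all 3 on the plus strand. Fgfbp3 and Btaf1 were transcribed away from each other, with 6.463 kb between the gene bodies. The bodies of Cpeb3 and March5 overlapped by 1.059 kb on opposite strands but shared no exon bases. The counting did not use strand, and the only exon overlap of the 8 genes was 116 of the 7414 exon bases of Cpeb3, shared with A330032B11Rik on the opposite strand.

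The 3 stretches of reference sequence given here show what the genes with the lower counts carry. The first is the part of the Ide coding sequence that holds its zinc-binding motif, the centre of the enzyme's catalytic site, with the 5 codons of the motif in capitals. It was read on the minus strand from exon 2 of the 24 exons of transcript Ide-201 at chr19:37329112-37329174 of GRCm38, with the motif at 37329136 to 37329150. The coding start of Ide-201 is not annotated, so the exon number holds for this transcript only.
Ide: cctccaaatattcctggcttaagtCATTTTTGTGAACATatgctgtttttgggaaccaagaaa
The other stretches are the 250 bases before the RefSeq transcription starts of Fgfbp3 and Btaf1, the adjacent divergent pair (GRCm38.p6), with the matches to searched motifs in capitals. The Fgfbp3 window is chr19:36919600-36919849 on the minus strand, and the Btaf1 window is chr19:36925829-36926078 on the plus strand.
Fgfbp3: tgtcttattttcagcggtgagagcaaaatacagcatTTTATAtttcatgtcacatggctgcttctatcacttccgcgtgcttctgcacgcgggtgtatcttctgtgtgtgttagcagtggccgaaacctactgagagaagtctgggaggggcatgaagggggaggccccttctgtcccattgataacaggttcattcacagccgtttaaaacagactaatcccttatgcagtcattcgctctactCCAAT
Btaf1: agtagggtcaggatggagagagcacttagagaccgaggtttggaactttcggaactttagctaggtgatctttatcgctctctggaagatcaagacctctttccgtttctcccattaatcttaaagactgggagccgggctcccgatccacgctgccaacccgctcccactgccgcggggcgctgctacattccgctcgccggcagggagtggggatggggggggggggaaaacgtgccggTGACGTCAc
The motifs, searched on both strands, were the GC box GGGCGG, the CCAAT box CCAAT, the TATA box TATAAA, the cyclic AMP response element TGACGTCA, the ETS motif CCGGAAG and the NRF1 motif. The Fgfbp3 window held 1 CCAAT box at its last bases and 1 TATA box in reverse orientation, and the Btaf1 window held 1 TGACGTCA close to the start site. Across 32851 promoter windows of the same length, CCAAT was present in 33.8%, TATAAA in 12.4%, TGACGTCA in 1.5%, GGGCGG in 32.7%, CCGGAAG in 6.9% and the NRF1 motif in 3.7%. The Fgfbp3 window had a GC content of 47.2% with 8 CpG dinucleotides and the Btaf1 window 58.4% with 17, beside medians of 52.4% and 6 over all windows. No motif was common to the Fgfbp3 and Btaf1 windows. A match to these letters is a description and not a site of binding. The RefSeq start of Ide lay 3.31 kb inside the gene body of the count table, so its window is not shown.

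Ide was lower in each R/R lung than in each WT lung. Levels in CPM (counts relative to the library total after TMM scaling) were 54.6, 62.3 and 59.3 in R/R-1, R/R-2 and R/R-3 and 118, 104 and 121 in WT-1, WT-2 and WT-3. The groups stood well apart, since the lowest WT lung was 1.66 times the highest R/R lung, whereas the highest lung of a genotype was 1.14 times the lowest in R/R and 1.16 times in WT. The means were 58.7 ± 3.87 CPM in R/R and 114 ± 9.20 CPM in WT (SD, n = 3 each), which placed R/R at 51.5% of WT. The log2 fold change was −0.96 (SE 0.07, 95% interval −1.12 to −0.79), a WT level 1.94 times that of R/R with a 95% interval of 1.73 to 2.18. The counts behind these levels were 984, 1042 and 1006 in R/R and 1945, 1876 and 2059 in WT.

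Fgfbp3 was also lower in each R/R lung, from far fewer reads. Its levels were 7.77, 7.11 and 4.83 CPM in R/R-1 to R/R-3 and 14.0, 14.6 and 13.1 CPM in WT-1 to WT-3. R/R-3 was the lowest of the 6 lungs, and the lowest WT lung was 1.68 times the highest R/R lung. The means were 6.57 ± 1.54 CPM in R/R and 13.9 ± 0.768 CPM in WT (SD, n = 3 each), so that R/R was at 47.3% of WT. The log2 fold change was −1.08 (SE 0.16), a WT level 2.11 times that of R/R with a 95% interval of 1.65 to 2.70. R/R-3 rested on 82 counts, with an exact Poisson interval of 3.84 to 6.00 CPM that lay below that of R/R-1, 6.54 to 9.17 CPM. It overlapped that of R/R-2, 5.89 to 8.51 CPM. Such intervals cover counting error only. Among R/R lungs the SD was 23.5% of the mean, against 9.38% from counting alone, while among WT lungs it was 5.53% against 6.46%. In R/R lungs the SD of other genes of the locus was above counting as well, at 6.59% against 3.15% for Ide, 7.46% against 2.76% for Btaf1 and 5.21% against 1.63% for Tnks2. March5 was the exception, at 2.41% against 3.13%.

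Btaf1 was lower in the R/R lungs by a smaller margin. It was at 70.3, 81.5 and 77.2 CPM in R/R-1 to R/R-3 and at 109, 107 and 98.1 CPM in WT-1 to WT-3. The groups did not overlap, but the lowest WT lung was only 1.20 times the highest R/R lung. The means were 76.3 ± 5.69 and 105 ± 5.75 CPM (SD, n = 3 each), and R/R was at 73.0% of WT. The log2 fold change was −0.46 (SE 0.07), a WT level 1.37 times that of R/R with a 95% interval of 1.23 to 1.52.

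**Figure D1:**
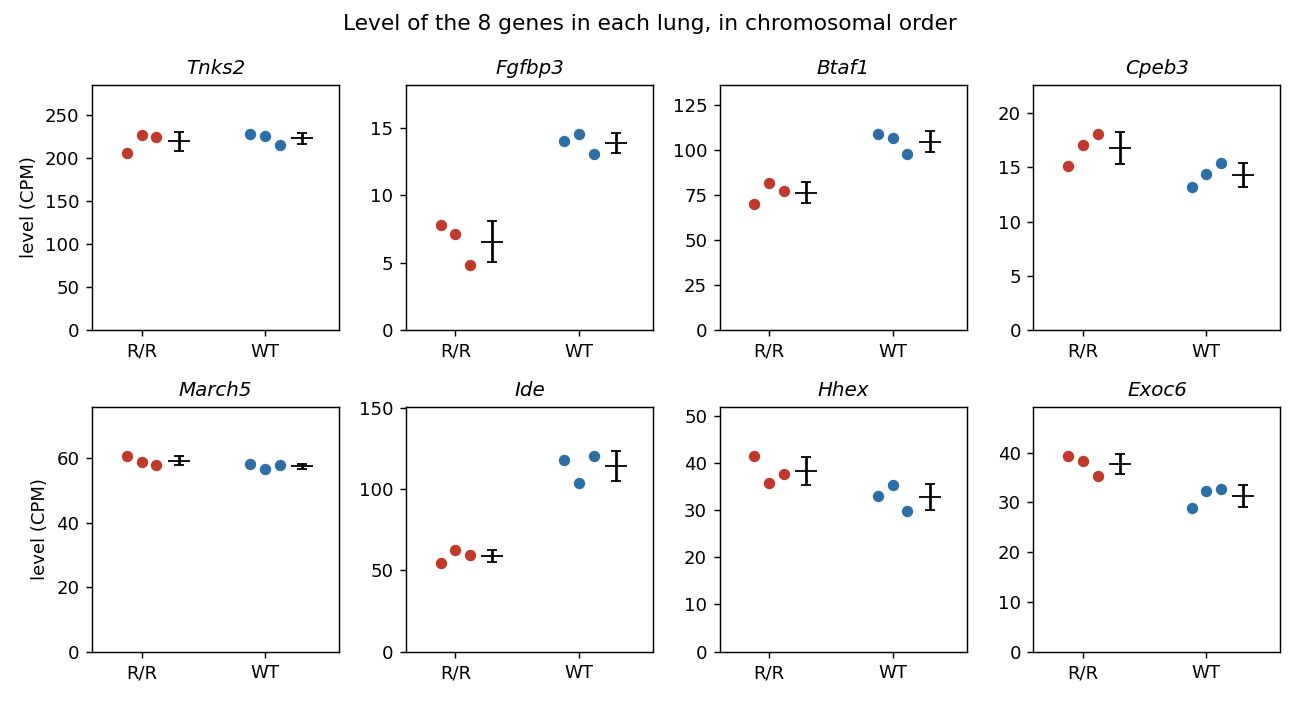
Level in CPM of the 8 genes in each lung, with red points for the 3 R/R lungs and blue points for the 3 WT lungs (points in replicate order, axes from 0), and the mean with its SD beside the points. Ide, Fgfbp3 and Btaf1 were lower in all 3 R/R lungs, and the other 5 genes were at R/R means between 98.4% and 121% of WT.

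The genes between Fgfbp3 and Ide that had been taken by position did not share the lower level. March5, a ubiquitin ligase of the mitochondrial outer membrane, was at 60.8, 58.9 and 58.0 CPM in R/R-1 to R/R-3 and at 58.1, 56.6 and 57.8 CPM in WT-1 to WT-3. These values overlapped, with a log2 fold change of 0.04 (SE 0.06, adjusted p = 0.809 over all genes tested, by edgeR's quasi-likelihood test with Benjamini-Hochberg adjustment). Its 95% interval ran from −0.08 to 0.17, so that a 1.5-fold difference in either direction, 0.58 on this log2 scale, was outside it. Cpeb3, an RNA-binding regulator of translation, was at 15.2, 17.1 and 18.1 CPM in R/R-1 to R/R-3 and at 13.2, 14.4 and 15.4 CPM in WT-1 to WT-3. R/R-1 lay inside the WT range, and the log2 fold change was 0.23 (SE 0.11, edgeR adjusted p = 0.372, 95% interval −0.01 to 0.46).

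The flanking genes did not pass the test either. Tnks2 encodes a tankyrase, a poly-ADP-ribose polymerase that marks proteins such as axin for degradation, and was at 207, 227 and 225 CPM in R/R-1 to R/R-3 and at 228, 226 and 216 CPM in WT-1 to WT-3. The groups overlapped, and the log2 fold change was −0.02 (SE 0.06, edgeR adjusted p = 0.911, 95% interval −0.15 to 0.11). Hhex, a homeobox transcription factor, was at 41.5, 35.6 and 37.6 CPM in R/R-1 to R/R-3 and at 32.9, 35.3 and 29.8 CPM in WT-1 to WT-3. Exoc6, a subunit of the exocyst that tethers secretory vesicles at the plasma membrane, was at 39.4, 38.3 and 35.4 CPM in R/R-1 to R/R-3 and at 28.8, 32.3 and 32.7 CPM in WT-1 to WT-3. For Hhex and Exoc6 all R/R lungs were above all WT lungs, narrowly for Hhex. Their log2 fold changes were 0.23 (SE 0.09, edgeR adjusted p = 0.253) and 0.27 (SE 0.08, edgeR adjusted p = 0.133), with 95% intervals of 0.04 to 0.42 and 0.10 to 0.44 before adjustment for the number of genes.

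**Figure D2:**
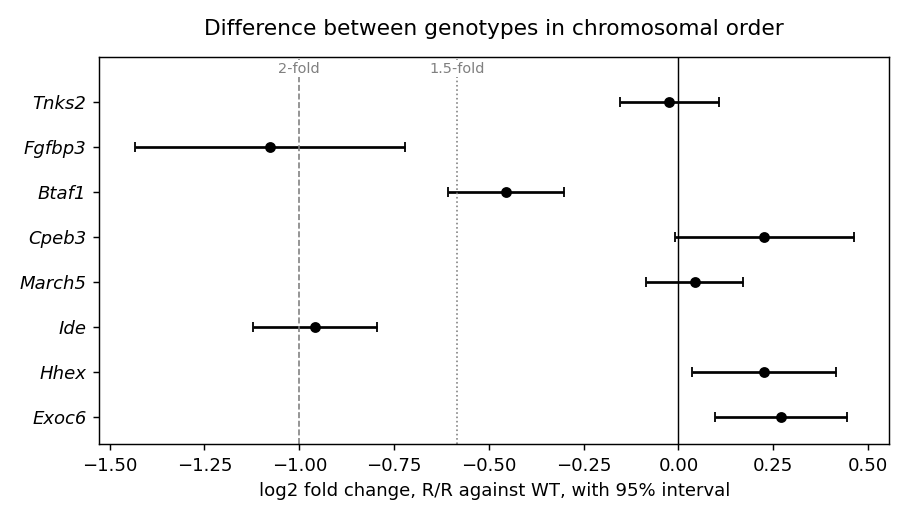
Log2 fold change of R/R against WT for the 8 genes in chromosomal order from top to bottom, with the 95% interval of the fit as a bar and dashed and dotted lines at a level 2-fold and 1.5-fold lower. Ide (−0.96) and Fgfbp3 (−1.08) lie at the 2-fold line and Btaf1 (−0.46) between the 1.5-fold line and 0, with Cpeb3 (0.23) and March5 (0.04) between Btaf1 and Ide at or above 0.

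Counted over the locus, 3 of the 8 genes passed an adjusted p of 0.05, all lower in R/R, beside 1.75% of all genes tested in either direction and 1.10% lower. None of the 8 was called higher, beside 0.648% of all genes tested. The groups did not overlap for 5 of the 8 genes, beside 18.7% of all genes tested. Because earlier values of the same contrast chose Ide, Fgfbp3 and Btaf1, nothing is read from these counts. Ordered from the lowest log2 fold change, Fgfbp3 stood at 122, Ide at 180 and Btaf1 at 981 of the 17120 genes tested. Among the 560 genes tested on chromosome 19 the places were 2, 5 and 30, and 13 of these 560 were called. The median size of the log2 fold change over all genes tested was 0.11.

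Per length of exon, the levels of the 8 genes kept a different order in the genotypes. In WT lungs March5 was highest at 23.9 CPM per kb, followed by Tnks2 at 21.5, Ide at 15.2, Btaf1 at 10.2, Exoc6 at 8.07, Fgfbp3 at 7.84, Hhex at 6.46 and Cpeb3 at 1.93 CPM per kb. Among neighbours in that order, only the ranges of Exoc6 and Fgfbp3 overlapped over the 3 WT lungs. In R/R lungs the order was March5 at 24.6 CPM per kb, Tnks2 at 21.1, Exoc6 at 9.73, Ide at 7.82, Hhex at 7.56, Btaf1 at 7.44, Fgfbp3 at 3.71 and Cpeb3 at 2.26 CPM per kb. There the ranges of Ide (7.28 to 8.30 CPM per kb), Hhex (7.05 to 8.21) and Btaf1 (6.85 to 7.95) overlapped. Ide therefore stood clear of Btaf1 in WT lungs and level with it in R/R lungs.

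A difference, called the step here, was taken inside each lung and is independent of the scaling between libraries. It was the mean log2 CPM of Ide and Fgfbp3 minus the mean of the other 6 genes of the locus. It marks no single position along the chromosome, since Btaf1, Cpeb3 and March5, among the 6 genes, lie between Fgfbp3 and Ide. Because earlier values of the genotype contrast chose Ide and Fgfbp3, the step restates their lower levels. The step was −1.36, −1.36 and −1.67 in R/R-1 to R/R-3 and −0.33, −0.45 and −0.37 in WT-1 to WT-3. Every lung of a genotype was closer to the others of that genotype than to any lung of the other genotype. The means differed by −1.08 on the log2 scale, or 2.11-fold, where 2-fold is a log2 value of 1 and 1.5-fold one of 0.58. The reference ratios are given for scale only, since DNA was not measured and the part of copy number was not tested. Set against the 5 genes taken by position, Ide alone differed by −1.11, Fgfbp3 by −1.25 and Btaf1 by −0.60 on the log2 scale, the last being 1.52-fold. These values exceed the genes' own log2 fold changes of −0.96, −1.08 and −0.46, since the mean of the 5 genes was higher in R/R. The 5 stood at −0.02 (Tnks2), 0.23 (Cpeb3), 0.04 (March5), 0.23 (Hhex) and 0.27 (Exoc6). Btaf1 was 1.37-fold by its own level and 1.35-fold per Tnks2 count.

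Ratios of counts between single genes restated these differences lung by lung. The genotype contrast chose Ide, Fgfbp3 and Btaf1, so nothing is read from the separation of their ratios. There were 0.899, 1.06 and 1.02 Ide counts per March5 count in R/R-1 to R/R-3 and 2.03, 1.83 and 2.09 in WT-1 to WT-3. Fgfbp3 had 0.0376, 0.0313 and 0.0214 counts per Tnks2 count in R/R and 0.0614, 0.0645 and 0.0605 in WT. Btaf1 had 0.340, 0.359 and 0.343 counts per Tnks2 count in R/R and 0.477, 0.472 and 0.455 in WT. In all of these the WT lungs lay above the R/R lungs without overlap. Fgfbp3 counts per Ide count, by contrast, overlapped between the genotypes, at 0.142, 0.114 and 0.0815 in R/R and 0.119, 0.141 and 0.108 in WT. Btaf1 counts per Ide count did not overlap, at 1.29, 1.31 and 1.30 in R/R and 0.923, 1.03 and 0.814 in WT, so Btaf1 was lower by a smaller factor than Ide.

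**Figure D3:**
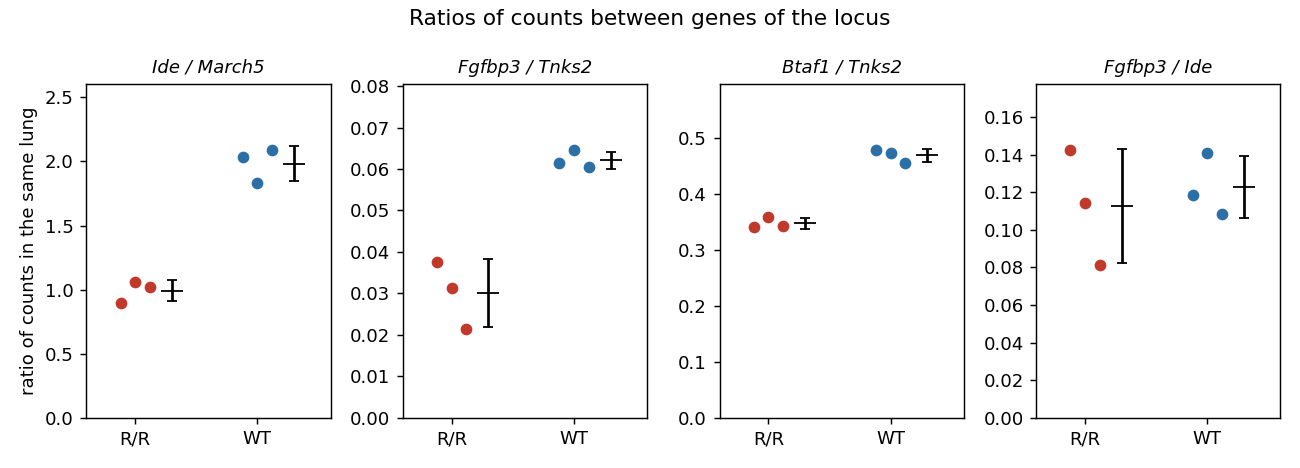
Ratio of the counts of 1 gene to those of another in the same lung for Ide to March5, Fgfbp3 to Tnks2, Btaf1 to Tnks2 and Fgfbp3 to Ide, with red points for R/R lungs, blue points for WT lungs, the mean with its SD beside them and axes from 0. The first 3 ratios separated the genotypes, with means of 0.993 and 1.98 for Ide to March5, and Fgfbp3 to Ide did not.

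The likeness of 2 genes was also described as the root mean square difference between their deviations, in log2 CPM from each gene's own mean, over the 6 lungs. Both genotypes enter each mean, so the measure largely restates differences in log2 fold change between genes. Earlier values of that contrast chose Ide, Fgfbp3 and Btaf1, so nothing is read from their likeness to other genes. It was 0.077 for Tnks2 and March5 and 0.12 for Hhex and Exoc6, the closest pairs outside the genes with the lower counts. It was 0.27 for Fgfbp3 and Ide, 0.27 for Btaf1 and Ide and 0.40 for Fgfbp3 and Btaf1. Btaf1 was as close to March5 (0.27) as to Ide and closer to Tnks2 (0.22). Across the genome, the genes most like Ide by this measure included Traf3ip3 on chromosome 1 (0.10), Spp1 on chromosome 5 (0.11), F730311O21Rik on chromosome 1 (0.13) and Rpl17 on chromosome 18 (0.13). None of these 4 lay on chromosome 19, and their log2 fold changes ran from −0.94 to −0.83.

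Of the genes around the 8, none passed the test. From 2 Mb before Tnks2 to 2 Mb past Exoc6, 86 genes were in the table and 29 were tested, of which 21 were not genes of the locus set. Of these 21, 0 were called by edgeR's quasi-likelihood test, beside 1.75% of all genes tested. An unadjusted p under 0.05 was found for 6, beside 14.2% of all genes tested. DESeq2, limma-voom and edgeR's exact test called 0 as well, beside 530 of 14975, 251 of 17120 and 630 of 17120 genes tested. The 21 divided into 14 with a higher and 7 with a lower mean in R/R. Their median log2 fold change was 0.07 and the range −0.62 to 1.22, beside a median of 0.0045 over all genes tested. The groups did not overlap for 11 of the 21, beside 18.7% of all genes tested. Of the 15 genes overlapping the locus that had at least 1 count, 3 outside the set were tested, and these included Kif11, which lies between Ide and Hhex. Kif11, a mitotic kinesin singled out here after its values were seen, had the lowest fold change of the 21. It was at 3.16, 5.32 and 4.89 CPM in R/R-1 to R/R-3 and at 6.20, 8.22 and 6.09 CPM in WT-1 to WT-3 (log2 fold change −0.62, SE 0.21, edgeR adjusted p = 0.200).

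**Figure D4:**
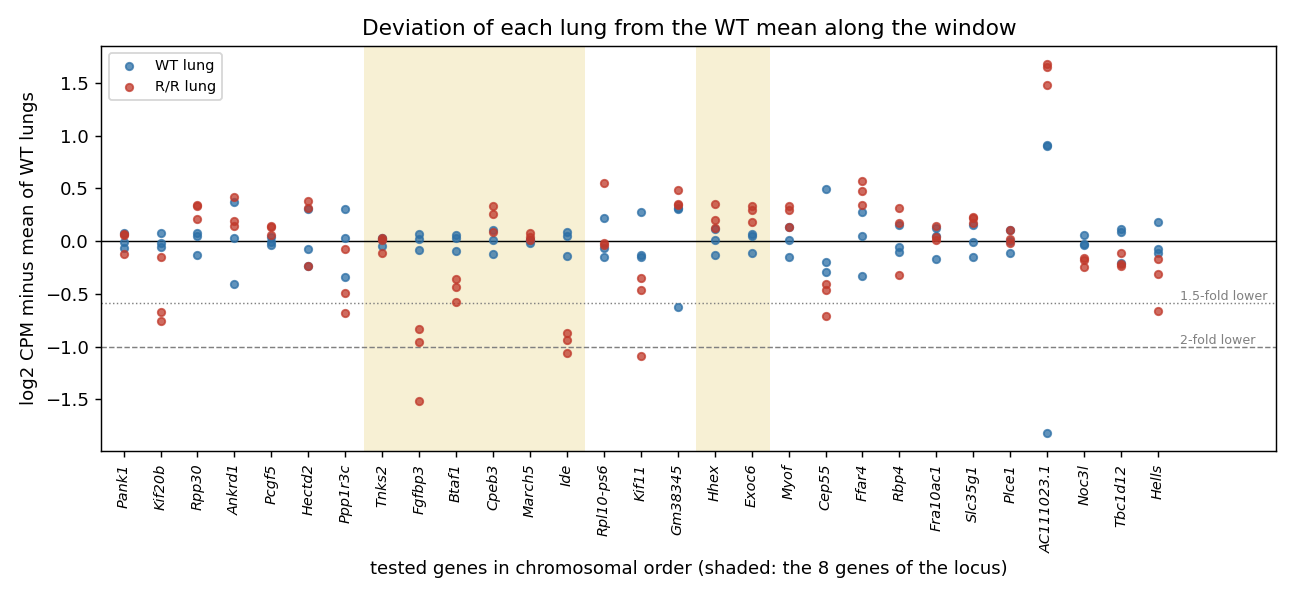
Log2 CPM of each lung minus the mean of the WT lungs for the 29 tested genes of the window in chromosomal order, with red points for R/R lungs, blue points for WT lungs, shading for the 8 genes of the locus and lines at 1.5-fold and 2-fold lower. Among the shaded genes only Fgfbp3, Btaf1 and Ide have all 3 R/R lungs more than 0.3 below the WT mean. Unshaded Kif11 (−1.09, −0.35 and −0.47 in R/R-1 to R/R-3) and Cep55 (−0.46, −0.41 and −0.71) do so too. Cpeb3 and March5, which lie between Btaf1 and Ide, stay near or above 0.

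Genes that work with those of the locus were examined as lists, which named 109 tested genes besides the 8. Of these 109, 2 were called, 1 lower and 1 higher, a share of 1.83% that is close to the 1.75% of all genes tested, and the median log2 fold change of the 109 was 0.03. The called genes, Igfbp6 and Grb10, stood in the list of insulin and IGF signaling, in which 25 of 25 genes were tested. Igfbp6, a secreted protein that binds insulin-like growth factors, was at 234, 234 and 160 CPM in R/R-1 to R/R-3 and at 115, 116 and 160 CPM in WT-1 to WT-3. It rose by 0.69 on the log2 scale (SE 0.15, edgeR adjusted p = 0.0444), although R/R-3 and WT-3 were almost level, and it missed the threshold with DESeq2 (adjusted p = 0.0847) and limma-voom (0.0505). Grb10, an adaptor that restrains signaling from the insulin receptor, was at 79.0, 79.6 and 85.2 CPM in R/R-1 to R/R-3 and at 105, 102 and 95.2 CPM in WT-1 to WT-3, and fell by 0.31 on the log2 scale (SE 0.06, edgeR adjusted p = 0.0337). With 5 lungs fewer genes were called in most fits, and the calls of Igfbp6 and Grb10 were among those lost. Without R/R-1, R/R-2, WT-1 or WT-2 neither passed, with adjusted p between 0.0938 and 0.182, and without R/R-3 Grb10 did not pass (0.0557) whereas Igfbp6 did. Over the 6 fits with 1 lung left out, the log2 fold changes ran from 0.60 to 0.86 for Igfbp6 and from −0.35 to −0.28 for Grb10.

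Over all genes tested, 1.75% were called by edgeR's quasi-likelihood test and 14.2% had an unadjusted p under 0.05. DESeq2 called 530 of 14975 genes, limma-voom 251 of 17120 and the exact test of edgeR 630 of 17120. Among the peptide-degrading peptidases, 15 of 17 genes were tested. Of the 14 besides Ide, 0 were called by edgeR's quasi-likelihood test, 4 had an unadjusted p under 0.05, DESeq2 and the exact test of edgeR called 1 (Prep) and limma-voom 0. These 14 had a median log2 fold change of 0.03, and Nrd1 (nardilysin), a relative of Ide, was at −0.04 (SE 0.05, edgeR adjusted p = 0.790). Among the FGF ligands, receptors and binding proteins, 21 of 28 were tested. Of the 20 besides Fgfbp3, 0 were called by the quasi-likelihood test, 4 had an unadjusted p under 0.05, DESeq2 and the exact test of edgeR called 1 (Flrt2) and limma-voom 0, and their median log2 fold change was 0.05. Fgfbp1, a binding protein of the same family, was at 10.5, 11.1 and 10.2 CPM in R/R-1 to R/R-3 and at 6.98, 9.22 and 10.2 CPM in WT-1 to WT-3 (log2 fold change 0.27, SE 0.15, edgeR adjusted p = 0.456). Among TBP and its partners, 21 of 22 were tested. Of the 20 besides Btaf1, 0 were called by any of these tools and 1 had an unadjusted p under 0.05, with Tbp itself at a log2 fold change of 0.07 (SE 0.08, edgeR adjusted p = 0.768). Nrd1, Fgfbp1, Tbp, Prep and Flrt2 were named after their values were seen.

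The lists around the genes taken by position held no called gene by edgeR's quasi-likelihood test, which called 1.75% of all genes tested. An unadjusted p under 0.05 was found for 14.2% of all genes tested. Of the other tools, DESeq2 called 530 of 14975 genes, limma-voom 251 of 17120 and the exact test of edgeR 630 of 17120. For the tankyrase partners 0 of 7 were called, 1 had an unadjusted p under 0.05, and DESeq2, limma-voom and the exact test of edgeR called 0. For the CPEB family 0 of 8 were called, 1 had an unadjusted p under 0.05, and the exact test of edgeR called 1, Cpeb1 (also named after its values were seen), while DESeq2 and limma-voom called 0. For the exocyst subunits 0 of 9 were called, 1 (Exoc6) had an unadjusted p under 0.05, and the other tools called 0. Of these 9, 8 had a higher mean in R/R, beside 8769 of all 17120 genes tested. Their median log2 fold change was 0.06. For mitochondrial dynamics 0 of 10 were called, 0 had an unadjusted p under 0.05, and the other tools called 0.

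Cell-type markers moved with the genotype to some extent. Summed markers of lung epithelium (10 of 10 tested, 0 called) were at 36044 to 39237 CPM in R/R and 28696 to 36610 CPM in WT lungs, and those of endothelium (8 of 8 tested, 0 called) at 4990 to 5156 and 4956 to 5640 CPM, so the tissue carried the markers of lung. Of the 6 B-cell markers 4 were called, all lower in R/R, beside 1.10% of all genes tested. Their sums were 92.0 to 122 CPM in R/R and 165 to 205 CPM in WT lungs without overlap. T-cell markers (0 of 6 called) summed to 26.2 to 32.2 and 38.0 to 45.1 CPM, also without overlap. Of the 8 markers of macrophages, monocytes and neutrophils, 4 were higher and 4 lower in R/R. Called were 2 of them, beside 1.75% of all genes tested. The 8 summed to 932 to 1042 CPM in R/R and 674 to 894 CPM in WT lungs, without overlap as well. The 6 thymocyte markers, of which 2 passed the filter and were tested and 0 were called, summed to 18.4 to 23.9 and 24.4 to 24.9 CPM, narrowly without overlap. Rag2 was at 0 in all lungs, and liver markers summed to at most 1.55 CPM with Serpina1a at 0. Cardiac markers varied most, from 14.5 to 58.1 CPM in R/R and 11.5 to 169 CPM in WT lungs, skeletal muscle markers summed to at most 5.71 CPM with Myh4 at 0, and adipocyte markers to 15.5 to 18.97 and 9.17 to 18.7 CPM. The part of these cells in the levels of Ide, Fgfbp3 and Btaf1 was not tested.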

How the data were processed

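Lungs of 3 R/R and 3 WT mice were profiled by RNA-seq with paired 150 bp reads. The authors aligned them with HISAT2 2.1.0 to GRCm38 (mm10) and deposited raw counts per gene from featureCounts 2.0.1 with GENCODE M25 (versions per the file header, while the supplement gives another featureCounts version), without normalization, strand or reads that map to several places. The column of WT-3 of the deposited table is entered here as estimated counts only for a technical reason (a comment line was read as its header), and it holds whole, unrounded counts like the others. The supplement names edgeR and the submitters' processing notes name DESeq2.

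Symbols came from GENCODE M21 by gene identifier (55141 of 56262 matched, 1121 not). Gene coordinates were those deposited with the counts (GENCODE M25). The 8 genes of the locus were each found by symbol, and 0 columns were left unused. Genes kept by filterByExpr (minimum count 10, total 15) were scaled by TMM and fitted with glmQLFit and glmQLFTest of edgeR 4.0.16 in R 4.3.3, with 0.05 as the threshold on Benjamini-Hochberg adjusted p. Log2 CPM used a prior count of 0.5. CPM of single genes were computed from the same scaled libraries. For the smallest library, 3 counts were 0.182 CPM.

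By a fixed rule the text names, besides the 8 genes and Rbm47, genes of the window or of the pathway lists that were called and the 5 genes (mean log2 CPM of at least 1) most like Ide, of which 1 is not reported here. Kif11, Cep55, Nrd1, Fgfbp1, Tbp, Prep, Flrt2, Cpeb1, Ppp1r3c and Myof fall outside that rule and were named after their values were seen. The genes and lists were chosen with earlier results of these data known. Replicates are described as separate animals. Replicate libraries differed by more than sampling noise (chi-square per degree of freedom 5.65 to 9.03), so none was taken as a repeat. Alternatives were DESeq2 1.42.0, limma-voom (limma 3.58.1), edgeR's exact test, other scalings and filters, a replicate block, a narrower window, other flanks and leaving out each library. Sequences came from RefSeq promoter windows (all 8 genes had an entry, GRCm38.p6) and the GENCODE M21 transcript of Ide. Amino acid sequences were not used here.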

Additional observations from a re-analysis of the deposited data

How the results depend on the processing

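Ide, Fgfbp3 and Btaf1 stayed lower in R/R under all 14 alternatives, with log2 fold changes of −1.02 to −0.91, −1.22 to −0.90 and −0.50 to −0.40. The same contrast chose these 3 genes, so their direction is no sign of stability. Without WT-1 the number of the 8 genes called was 2 in place of 3, Btaf1 (−0.43) being the one lost. That fit called 65 of all 17467 genes tested. The 5 other genes were called in none of the 14, and only Tnks2 turned direction, whose log2 fold change ran from −0.051 to 0.017 when 1 library was left out, with 0.017 without R/R-1 (edgeR adjusted p = 0.953). The step stayed between −1.19 and −0.98 over 12 alternatives. Same-numbered lungs did not deviate together (correlations −0.014, −0.0036 and −0.015). No pairing by number was therefore seen, though 3 lungs per group cannot exclude one. With the replicate block 446 genes were called in place of 300, and the block changed no call among the 8 genes, where Ide was at −0.96.

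Over all genes DESeq2 called 530 of 14975 tested, limma-voom 251 of 17120, edgeR's exact test 630 of 17120 and no filter beyond 1 count 1109 of 31428. Leaving out 1 library gave 65 of 17467 (WT-1) to 621 of 17444 (WT-3). Without R/R-2 the count was 76 of 17497, of which 47.4% were higher against 37.0% with all lungs. Of the list genes besides the 8, limma-voom called 1, the exact test 6, no filter 10 and left-out libraries 0 to 8, the last without WT-3. Without a filter or with a library left out the genes tested differed, so the 109 need not be the base there. In the window, left-out libraries gave 0 to 1 calls, the 1 being Myof without WT-3 (0.32, edgeR adjusted p = 0.0434), and without a filter Ppp1r3c, Kif11 and Myof were called (adjusted p = 0.0111, 0.0324 and 0.00661). The cause of these differences was not tested. Fgfbp3 had the fewest counts of the 8 genes, down to 82 in R/R-3, and counts per gene over all exons cannot show where within a gene a difference begins.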
